A study of Mus musculus with 18 samples.

Results

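The genes described here mark microglia, the resident macrophages of the central nervous system, read in RNA from whole spinal cord. They are 34 named genes in 3 groups, 11 homeostatic genes, 7 pan-myeloid genes and 16 disease-associated genes, among 54446 genes in the count table. All 34 had enough counts to enter the test, which covered 20635 genes. All 18 mice were untreated and 10 months old, each library is 1 animal, and the 6 genotypes have 3 libraries each. The control group is non-transgenic C57BL/6 (NTg). The single mutants were heterozygous for a knock-in of human ATXN2 with 22 glutamines (Q22), of human ATXN2 with 33 glutamines (Q33) or of human TDP-43 (TDP-43). The double mutants, Q22;TDP-43 and Q33;TDP-43, were heterozygous for 1 ATXN2 knock-in and the TDP-43 knock-in together, and are also called the Q22 and Q33 double mutants below. ATXN2 and TDP-43 are RNA-binding proteins linked to amyotrophic lateral sclerosis. The labels give neither the sex of the animals nor the litter, nor how many founder lines stand behind a genotype.

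Microglia depend for survival on signalling through the CSF1 receptor, and their identity in the healthy cord is kept up by TGF-beta signalling and by transcription factors such as SALL1, PU.1 and IRF8. In that state they carry purinergic and fractalkine receptors that sense neighbouring neurons. Near damaged neurons, plaques or myelin debris they can lower these genes and raise a disease-associated set for lipid handling, phagocytosis and lysosomal digestion, a switch that depends in part on TREM2 and its adaptor TYROBP. Several genes of the disease-associated set are not restricted to microglia: Apoe is abundant in astrocytes, Spp1 in motor neurons, and the cathepsins and Cd9 in many cell types.

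Some properties of the libraries moved with the genotypes and touch every result below. Total counts ran from 16061359 to 30978678, with a median of 23807573.5. The mean log2 level of 6 Hox10 and Hox11 genes, which mark the caudal cord, was above 0 in 6 libraries: all 3 of Q33;TDP-43, replicates 2 and 3 of Q33, and replicate 1 of Q22;TDP-43. Mitochondrial ribosomal RNA held 23.4% to 28.7% of the counts in the Q33 double mutant and 12.7% to 23.4% in the other 15 libraries. The sum of 4 Y-linked genes was above 10 CPM (counts scaled to a library total of 1000000) in all 3 Q22 libraries, 2 each of Q33 and TDP-43, 1 of each double mutant and 0 of NTg. In bulk tissue, fewer microglia and less of a transcript per microglial cell cannot be told apart.

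Levels in control cord spanned a wide range. Per length (RPKM, CPM per 1000 bases of exon), the highest of the 34 in NTg was Apoe, a lipid carrier, at 85.96 ± 17.96 (SD, n = 3). The cathepsin genes Ctss, Ctsb and Ctsd followed at 79.9, 49.5 and 36.1 RPKM, and Spp1 stood at 34.2 RPKM. Among homeostatic genes the fractalkine receptor gene Cx3cr1 was highest, at 13.2 ± 1.82 RPKM, then Csf1r at 10.9 ± 0.784 and the ADP receptor gene P2ry12 at 9.05 ± 2.04. The means of Csf1r and P2ry12 differed by less than the SD of P2ry12. The defining microglial markers were present in the tissue as labelled. At the bottom stood Cst7, a cystatin, at 0.394 ± 0.287 RPKM and Itgax, the CD11c integrin gene, at 0.119 ± 0.0358 RPKM. Both are genes of the advanced disease-associated state, and their counts fell to 1 and 2 read pairs in the lowest library.

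**Figure D1:**
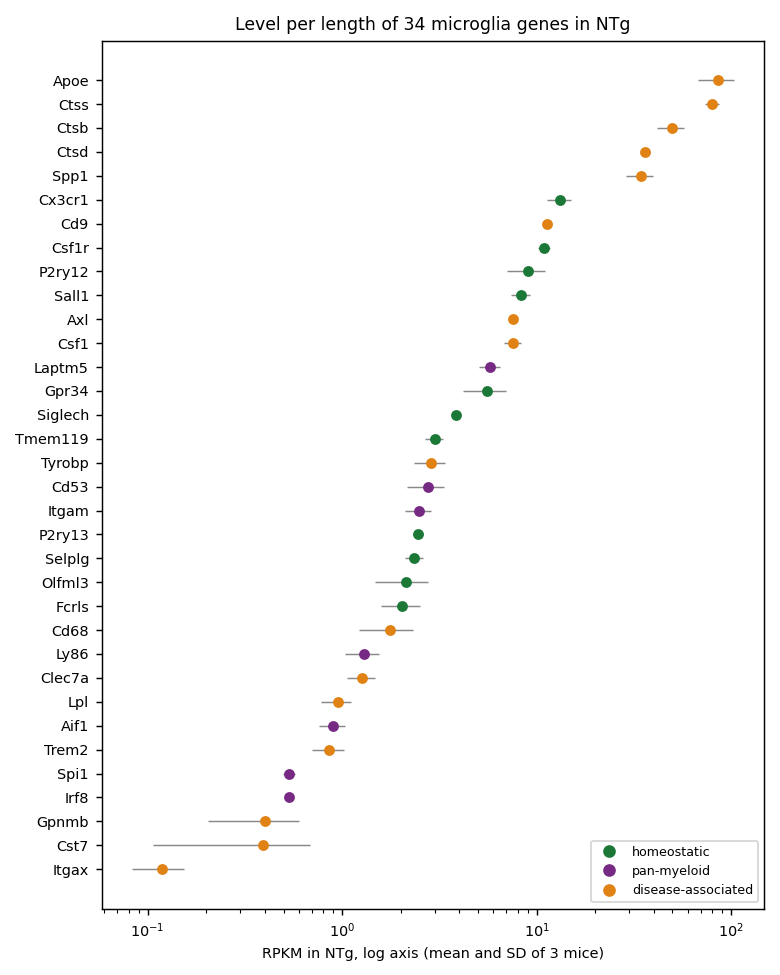
Mean level per length (RPKM, log axis) of the 34 genes in the 3 NTg cords, with the SD as a bar, coloured by gene group. Disease-associated genes stand at both ends, from Itgax at 0.119 to Apoe at 85.96 RPKM, and the homeostatic genes lie between.

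Other myeloid and lymphoid cells left few reads. The summed level of 11 markers of border-associated macrophages was 7.33 to 14.7 CPM over the 18 libraries, of 7 monocyte markers 0.284 to 1.99 CPM, and of 9 T and B cell markers 0.443 to 1.63 CPM. P2ry12, Tmem119, Cx3cr1 and Csf1r had counts in every library. Neutrophil markers (9 genes) summed to 0.0494 to 2.81 CPM in the other 5 genotypes and to 7.02, 9.36 and 1.03 CPM in Q33 replicates 1, 2 and 3. At these depths 3 counts corresponded to 0.101 to 0.176 CPM, and 4 of 11, 1 of 7, 1 of 9 and 3 of 9 of these markers had enough counts to be tested.

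The start regions of members that passed a test are described by their letters. PU.1, the product of the member Spi1, is a myeloid factor that binds purine-rich GAGGAA elements. A part of PU.1 in any change was not tested. RefSeq promoter windows of GRCm38.p6 (250 bases before to 50 after a start) were found for 26 of the 34 genes, and none for Tmem119, Csf1r, Gpr34, Selplg, Spi1, Tyrobp, Lpl and Ctsb. The motif GAGGAA, on either strand, was in 48.5% of 33 member windows and in 28.3% of all 32851 windows. By group it was in 33.3% of 9 homeostatic, 57.1% of 7 pan-myeloid and 52.9% of 17 disease-associated windows. The longer form GAGGAAGT, which contains the shorter one, was in 3 of the 33 member windows (9.09%), 0 of them homeostatic, and in 3.2% of all. A match is a description of the letters and not a bound site. The 120 bases before the RefSeq start are given 5′ to 3′ in the direction of the gene for the 6 members with calls and no annotated exon in that stretch. Where such a gene has several windows, 1 is shown (for Sall1, the most upstream). Capitals mark GAGGAA, or GAGGAAGT in Spp1, and their reverse complements.
Sall1 (chr8:89044163-89044282, minus strand): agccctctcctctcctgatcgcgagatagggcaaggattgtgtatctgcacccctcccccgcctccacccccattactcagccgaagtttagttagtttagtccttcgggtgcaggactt
Itgam (chr7:128062520-128062639, plus strand): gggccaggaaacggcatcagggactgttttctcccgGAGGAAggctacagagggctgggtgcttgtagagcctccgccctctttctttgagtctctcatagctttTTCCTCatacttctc
Clec7a (chr6:129472780-129472899, minus strand): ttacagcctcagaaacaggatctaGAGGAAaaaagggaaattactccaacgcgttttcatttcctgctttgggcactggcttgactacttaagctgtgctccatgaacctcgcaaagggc
Csf1 (chr3:107760470-107760589, minus strand): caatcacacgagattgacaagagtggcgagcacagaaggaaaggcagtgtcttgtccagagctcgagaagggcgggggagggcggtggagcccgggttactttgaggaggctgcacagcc
Cd68 (chr11:69666171-69666290, minus strand): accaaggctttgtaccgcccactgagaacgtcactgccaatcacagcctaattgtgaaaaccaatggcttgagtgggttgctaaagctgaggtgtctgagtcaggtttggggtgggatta
Spp1 (chr5:104434991-104435110, plus strand): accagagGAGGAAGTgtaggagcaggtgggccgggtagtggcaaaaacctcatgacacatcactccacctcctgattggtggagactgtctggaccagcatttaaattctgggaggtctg
The Itgam stretch held GAGGAA on both strands, starting at -84 and -15 from the RefSeq start. Clec7a held it at -96, and Spp1 held the longer form starting at -113. The Csf1 and Cd68 stretches had no match, nor had any of the 3 Sall1 windows in that stretch.

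A part of the microglial genes was lower in the cords of Q33;TDP-43 mice than in NTg. Of the homeostatic genes 4 of 11 (Csf1r, Cx3cr1, Sall1 and Siglech), 2 of 7 pan-myeloid genes (Itgam and Laptm5) and 3 of 16 disease-associated genes (Lpl, Clec7a and Csf1) fell, with log2 fold changes (log2FC) from -0.49 to -1.66. Spp1 was the 1 gene that rose, with a log2FC of 1.08. The call was an adjusted p under 0.05 in the edgeR quasi-likelihood test over all genes. Of the 34 genes 10 were called, 9 lower and 1 higher, beside 12.1% of all genes tested (6.39% lower and 5.68% higher). All 11 homeostatic and all 7 pan-myeloid estimates were below 0, as were 12 of 16 disease-associated ones. Their medians were -0.51, -0.59 and -0.32, and the median over all genes tested was -0.01.

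The libraries of the groups were apart for more genes than passed the test. For 18 of the 34 genes (52.9%) every Q33;TDP-43 library was below every NTg library, as was so for 15.8% of all genes. These were 7 of 11 homeostatic, 5 of 7 pan-myeloid and 6 of 16 disease-associated genes. Spp1 alone (2.94%) had every Q33;TDP-43 library above NTg, against 14.4% of all genes. The summed level of the homeostatic genes was 144, 179.7 and 180.0 CPM in the Q33 double mutant and 232 to 268 CPM in NTg. Pan-myeloid genes summed to 25.6, 32.9 and 36.3 CPM against 45.6 to 54.4 CPM. The sum over disease-associated genes, was 841 to 974 CPM in the Q33 double mutant and overlapped that in NTg, 835 to 903 CPM. Ctsb, Apoe and Ctss gave most to that sum in NTg, and Ctsb, Apoe and Spp1, the gene that rose, in the Q33 double mutant.

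**Figure D2:**
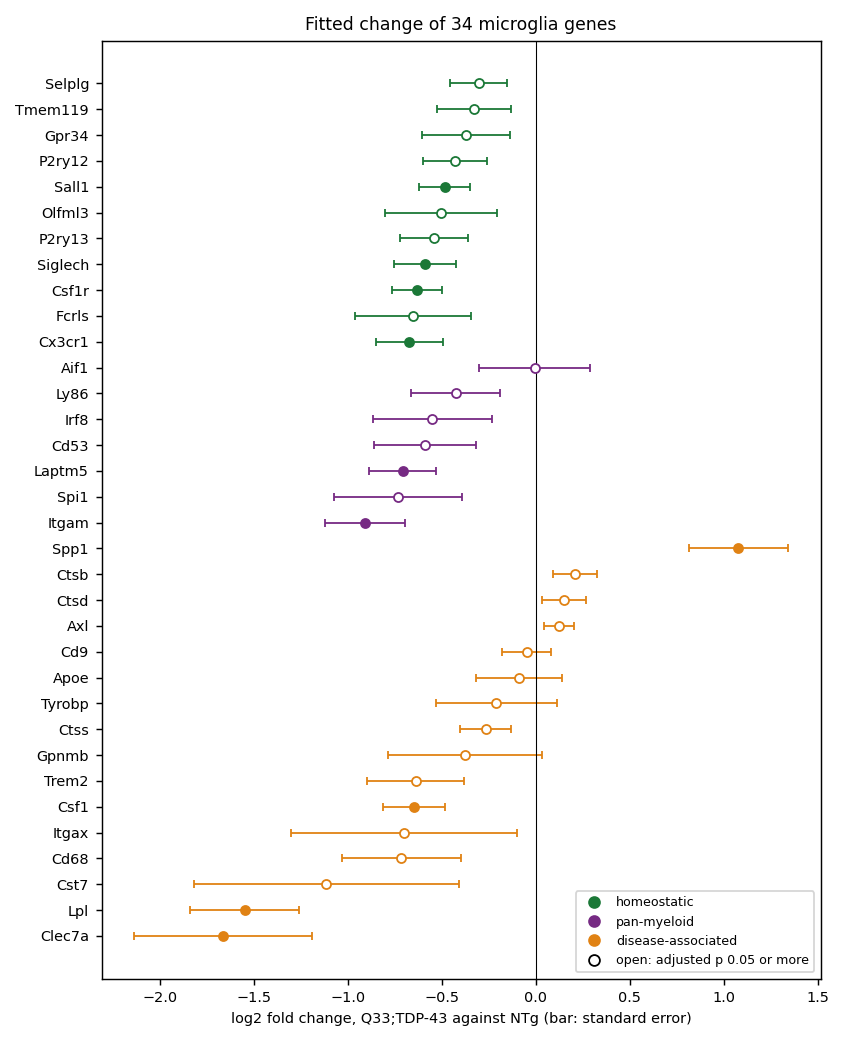
Fitted log2 fold change of each of the 34 genes in Q33;TDP-43 against NTg (x axis) with its standard error, coloured by gene group, where filled points have an adjusted p under 0.05. All homeostatic and pan-myeloid points lie below 0, with Aif1 at -0.01, while disease-associated genes run from Clec7a at -1.66 to Spp1 at 1.08.

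Among receptors, Csf1r, which encodes the receptor that microglia need to survive (ENSMUSG00000024621.15), had 30.3, 36.7 and 36.3 CPM in the 3 Q33;TDP-43 libraries and 50.9, 51.7 and 57.9 in NTg. It had 56.3, 53.8 and 44.8 CPM in Q22, 49.8, 40.03 and 47.5 in Q33, 52.9, 46.1 and 62.6 in TDP-43 and 41.98, 54.8 and 54.7 in Q22;TDP-43. The Q33;TDP-43 values were below the other 15 libraries. The mean fell from 53.5 ± 3.83 to 34.5 ± 3.58 CPM (SD, n = 3), with log2FC -0.63, SE 0.13, adjusted p = 0.0066. Cx3cr1, the receptor for neuronal fractalkine (ENSMUSG00000052336.7, chromosome 9, 119901616 to 120069879, minus strand, coordinates here and below of the whole gene in mm10), fell from 54.7, 54.6 and 68.8 CPM in NTg to 32.9, 35.8 and 43.2 in the Q33 double mutant (log2FC -0.67, SE 0.18, adjusted p = 0.02). These groups did not overlap. Among the other 12 libraries, replicate 2 of TDP-43 and replicate 1 of Q22;TDP-43 lay inside the Q33 double mutant's range, at 34.3 and 38.9 CPM.

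Siglech, a sialic acid-binding lectin of microglia (ENSMUSG00000051504.18, chromosome 7, 55768178 to 55778925, plus strand), had 13.6, 12.9 and 12.5 CPM in NTg and 7.40, 8.36 and 10.2 in the Q33 double mutant (log2FC -0.59, SE 0.16, adjusted p = 0.027). Its other 12 libraries ranged from 8.72 to 14.9 CPM, and replicate 1 of Q22;TDP-43, replicate 2 of Q33 and replicate 2 of TDP-43 lay inside the Q33 double mutant's range. The transcription factor gene Sall1, which helps to set microglial identity (ENSMUSG00000031665.7, chromosome 8, 89027235 to 89044162, minus strand), had 24.3, 37.6 and 32.1 CPM in the Q33 double mutant. NTg had 46.7, 37.98 and 46.7, Q22 41.6, 42.5 and 40.2, Q33 46.9, 40.4 and 42.1, TDP-43 46.3, 52.7 and 52.6 and Q22;TDP-43 38.1, 49.6 and 48.01. Every Q33;TDP-43 library lay below all others, replicate 2 by little (log2FC -0.49, SE 0.14, adjusted p = 0.027 against NTg). Sall1 is also made by some other cells of the developing nervous system, so its level need not come from microglia alone.

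P2ry12 and Tmem119, commonly used to tell microglia from other macrophages, did not pass the test. P2ry12, an ADP receptor of the resting cell's processes, had 16.1, 15.8 and 19.3 CPM in the Q33 double mutant and 17.04, 26.1 and 25.9 in NTg, overlapping through replicate 1 of NTg (log2FC -0.43, SE 0.17, adjusted p = 0.1). Over all 18 libraries its coefficient of variation was 16.2%, the lower end of the homeostatic group, which reached 31.3%. Tmem119, a membrane protein gene of microglia, had 5.63, 5.03 and 5.89 CPM in the Q33 double mutant, below the NTg values of 6.26, 6.83 and 7.70, but its lowest value of all was 4.33 CPM in a Q33 library (log2FC -0.33, SE 0.20, adjusted p = 0.29). P2ry13, a second ADP receptor gene, showed another pattern: NTg stood at 5.87, 6.16 and 6.63 CPM, and the Q33, TDP-43, Q22;TDP-43 and Q33;TDP-43 libraries all lay lower, from 3.55 to 5.70 CPM. Against the same NTg libraries its log2 fold changes were -0.46, -0.54, -0.49 and -0.54 in these groups (adjusted p = 0.66, 1, 1 and 0.058). Gpr34, a lysophospholipid receptor gene, Fcrls, an Fc receptor-like gene, and Olfml3, a secreted glycoprotein gene, ranged over the 18 libraries from 6.46 to 14.8, 1.84 to 5.97 and 6.87 to 22.6 CPM. With Selplg they had estimates of -0.37, -0.65, -0.51 and -0.30 with adjusted p from 0.17 to 0.32.

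Of the pan-myeloid genes, Itgam, which encodes the CD11b integrin (ENSMUSG00000030786.18, chromosome 7, 128062640 to 128118491, plus strand), fell most, from 14.3, 10.4 and 12.7 CPM in NTg to 4.50, 7.88 and 7.66 in the Q33 double mutant (log2FC -0.91, SE 0.21, adjusted p = 0.012). Its other 12 libraries ranged from 8.64 to 14.7 CPM, all above Q33;TDP-43. Itgam shares 68.7% of its exon bases on the same strand with the gene model Gm49368. Read pairs in shared bases were assumed to be left out, the default of the counting program. The file header does not settle this, so the level of Itgam is uncertain. Laptm5, a lysosomal membrane protein gene of blood cells and microglia (ENSMUSG00000028581.17, chromosome 4, 130913125 to 130936141, plus strand), had 11.3, 13.6 and 15.2 CPM in the Q33 double mutant, 20.3, 20.5 and 24.9 in NTg and 16.9 to 28.00 elsewhere (log2FC -0.71, SE 0.18, adjusted p = 0.016). The groups were apart, and all other 15 libraries were higher.

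The transcription factor genes Spi1 (PU.1) and Irf8 were low throughout, at 0.601 to 2.51 and 1.56 to 5.06 CPM. Both had Q33;TDP-43 libraries below NTg without overlap, with estimates of -0.73 and -0.55 that missed the threshold (adjusted p = 0.16 and 0.27). Cd53, a tetraspanin gene, stood at -0.59 (adjusted p = 0.16) and the MD-1 gene Ly86 at -0.43 (0.25). Aif1, which encodes the common microglial stain IBA1, differed least: 0.938, 1.81 and 1.37 CPM in the Q33 double mutant and 1.61, 1.25 and 1.25 in NTg (log2FC -0.01, SE 0.29, adjusted p = 0.99).

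The disease-associated genes did not move as 1 group. Lpl, lipoprotein lipase (ENSMUSG00000015568.16, chromosome 8, 68880491 to 68907448, plus strand), had 2.82, 3.02 and 4.43 CPM in the Q33 double mutant. NTg had 10.7, 7.93 and 11.2, Q22 7.94, 11.4 and 7.60, Q33 9.68, 6.16 and 7.31, TDP-43 8.44, 7.17 and 9.18 and Q22;TDP-43 4.22, 10.7 and 9.78. Only replicate 1 of Q22;TDP-43 reached down into the Q33 double mutant's range (log2FC -1.55, SE 0.29, adjusted p = 0.0036 against NTg). Clec7a, the beta-glucan receptor dectin-1 (ENSMUSG00000079293.11, chromosome 6, 129461591 to 129472779, minus strand), fell from 2.73, 3.55 and 3.78 to 1.01, 0.402 and 1.77 CPM (log2FC -1.66, SE 0.47, adjusted p = 0.03). Its other libraries ranged from 1.15 to 5.39 CPM and overlapped both groups. Csf1, a ligand of the CSF1 receptor (ENSMUSG00000014599.10, chromosome 3, 107741048 to 107760469, minus strand), had 19.3, 28.2 and 28.8 CPM in the Q33 double mutant, 38.00, 36.99 and 44.5 in NTg and 29.9 to 48.6 elsewhere, the lowest of these in Q33 (log2FC -0.65, SE 0.16, adjusted p = 0.017). Csf1 and the receptor gene Csf1r both fell.

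Spp1, osteopontin (ENSMUSG00000029304.14, chromosome 5, 104435118 to 104441050, plus strand), was the exception. It had 132, 130.5 and 94.3 CPM in the Q33 double mutant and 51.7, 66.4 and 51.2 in NTg, and the mean rose from 56.4 ± 8.66 to 119 ± 21.5 CPM (log2FC 1.08, SE 0.26, adjusted p = 0.015). Q22 had 95.5, 76.6 and 69.3 CPM and Q33 76.9, 81.4 and 111, also above NTg, while TDP-43 had 43.1, 103 and 46.7 and Q22;TDP-43 61.9, 48.2 and 38.4. Replicate 2 of TDP-43, replicate 3 of Q33 and replicate 1 of Q22 lay inside the Q33 double mutant's range. Spp1 is made by motor neurons as well as by microglia. All 8 motor neuron genes of a list read beside it had estimates above 0 in this comparison, 2 passed the test (Esrrg and Ret), and their summed level was 449.7 to 687 CPM in the Q33 double mutant and 311 to 462 CPM in NTg. The part of motor neuron RNA in the Spp1 change was not tested. Spp1 also shares 18.8% of its exon bases with the gene model Gm42793 on the same strand.

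The TREM2 receptor gene and its adaptor gene were lower in estimate only. Trem2 had 2.33, 2.90 and 2.97 CPM in the Q33 double mutant, below all of NTg at 3.72, 3.86 and 5.16 (log2FC -0.64, SE 0.26, adjusted p = 0.11), and all other libraries were higher too, from 2.99 to 5.74 CPM. Tyrobp had 1.88, 1.93 and 1.15 CPM against 1.77, 1.67 and 2.32, overlapping (log2FC -0.21, SE 0.32, adjusted p = 0.73). Apoe had 167, 209.8 and 142 CPM against 226, 151 and 174 (log2FC -0.09, SE 0.23, adjusted p = 0.85), and its highest value, 303 CPM, was in a Q22 library. None of these 3 genes passed the test.

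Cst7 and Itgax, markers of the advanced disease-associated state, had few counts, and each fell below the limit of detection in its lowest library. Cst7 had 0.225, 0.0402 and 0.266 CPM in the Q33 double mutant and 0.192, 0.261 and 0.712 in NTg (log2FC -1.11, SE 0.71, adjusted p = 0.32). Itgax had 0.338, 0.402 and 0.310 CPM in the Q33 double mutant, 0.537, 0.417 and 0.757 in NTg and 1.42, 1.88 and 0.420 in Q22 (log2FC -0.70, SE 0.60, adjusted p = 0.48 in Q33;TDP-43 against NTg). The groups overlapped for Cst7 and just did not for Itgax, whose highest values were in Q22 libraries. Gpnmb, a lysosome-linked glycoprotein gene, had an estimate of -0.38 (adjusted p = 0.6). Cd68, a lysosomal membrane protein gene of phagocytes (ENSMUSG00000018774.13, chromosome 11, 69664213 to 69666153, minus strand), had 1.05, 2.01 and 1.02 CPM against 2.96, 1.62 and 2.09 and overlapped (log2FC -0.72, SE 0.32, adjusted p = 0.14).

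Estimates for the widely expressed members were nearer 0. The cathepsin genes Ctsb and Ctsd, the receptor tyrosine kinase gene Axl and the tetraspanin gene Cd9 had estimates of 0.21, 0.15, 0.12 and -0.05, with adjusted p from 0.26 to 0.86. Ctss, the more microglial cathepsin, stood at -0.27 (109 ± 8.60 CPM in NTg and 90.2 ± 5.66 in the Q33 double mutant, adjusted p = 0.2), with no overlap between the groups. Ctsd shares 34.4% of its exon bases with the gene model Gm49369 on the same strand.

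**Figure D3:**
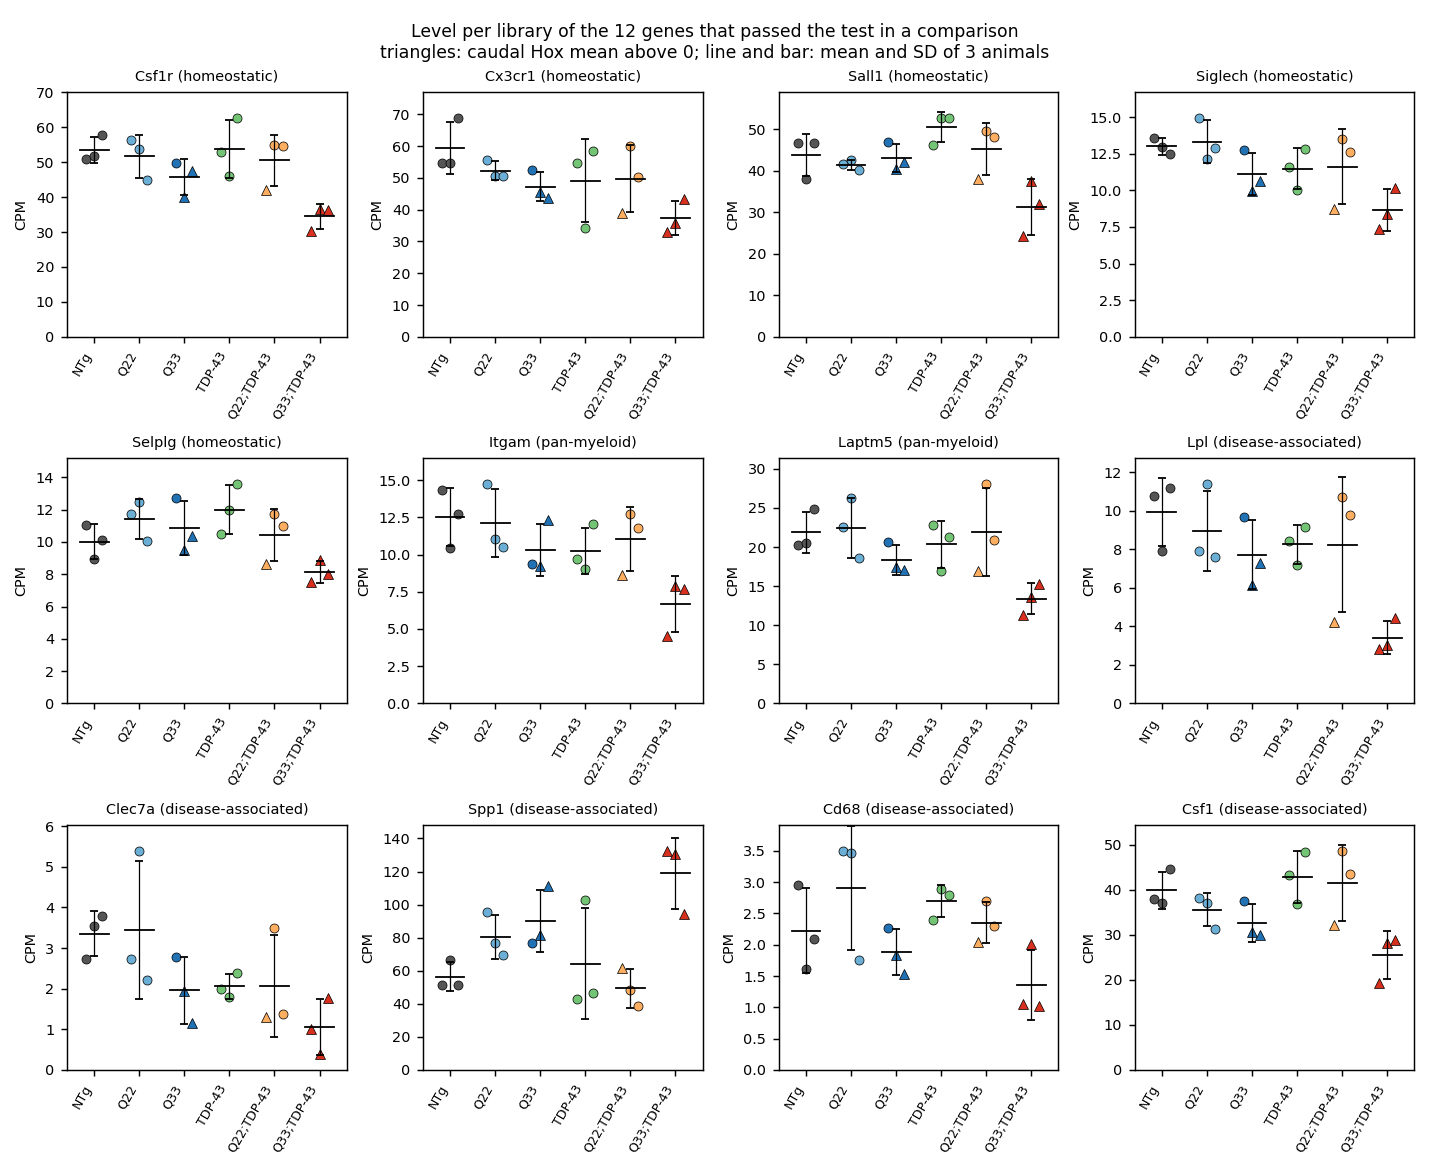
CPM in each of the 18 libraries (points, with line and bar for the mean and SD of 3 animals) by genotype, for the 12 genes that passed the test in a comparison, where triangles mark libraries with a caudal Hox mean above 0. Csf1r, Sall1, Itgam, Laptm5 and Csf1 are lowest in all 3 Q33;TDP-43 libraries, Spp1 is highest in 2 of them, and the Q22;TDP-43 triangle sits near Q33;TDP-43 for Lpl.

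Across the 6 genotypes the mean was lowest in the Q33 double mutant for 23 of the 34 genes (9 of 11 homeostatic, 5 of 7 pan-myeloid and 9 of 16 disease-associated), and highest there for 4, all disease-associated. The highest mean was in Q22 for 12 genes and in NTg and TDP-43 for 9 each.

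These calls rest on few libraries. Replicate 1 of Q33;TDP-43 was the lowest of all 18 libraries for 15 of the 34 genes, and without it 1 of the 10 calls against NTg, Lpl, was kept. Without NTg replicate 1, 2 or 3, the calls kept were 6, 8 and 3 (Csf1r, Itgam and Lpl in the last case), and without Q33;TDP-43 replicate 2 or 3 they were 7 and 10. With the caudal Hox level as a term in the fit, 1 member was called, Lpl, and the median over the 34 genes went from -0.52 to -0.23. Scaling by library totals alone shifted the median of all genes to -0.25 and called 17 members, 16 lower and Spp1 higher.

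Homeostatic and pan-myeloid sums were also lower in the libraries with a caudal Hox mean above 0, the pan-myeloid sums with a slight overlap. The 6 libraries with a caudal Hox mean above 0 had the 6 lowest homeostatic sums, 144 to 207 CPM, and the other 12 had 212 to 271 CPM. Of those 6, the 3 of other genotypes had 187 CPM (Q22;TDP-43 replicate 1), 196 CPM (Q33 replicate 2) and 207 CPM (Q33 replicate 3), and those of Q33;TDP-43 had 144 to 180.0 CPM. In that order the Hox means of the 3 were 3.51, 2.71 and 1.95. In Q33;TDP-43 the sum did not fall with the Hox mean: means of 3.54, 1.21 and 0.547 went with 179.7, 144 and 180.0 CPM. Q22 replicate 3, with a Hox mean of -0.195, had 212 CPM. Its caudal Hox genes summed to 44.1 CPM, beside 53.3 CPM in Q33;TDP-43 replicate 3. Pan-myeloid sums were 25.6 to 42.4 CPM in the 6 and 42.3 to 57.4 CPM in the 12. Disease-associated sums overlapped, at 803 to 974 and 759.7 to 1009.6 CPM. Sums of other cell types differed as well, with overlap: the 10 neuron genes summed to 10198 to 14392 CPM in the 6 and 7271 to 12737 CPM in the 12, and 7 oligodendrocyte genes to 5595 to 7767 and 7178 to 9800.2 CPM. Since all 3 Q33;TDP-43 libraries are among the 6, and none of NTg or TDP-43, caudal content and the double genotype cannot be told apart in those comparisons. Mitochondrial ribosomal RNA cannot be told apart from that genotype either. Its share was highest in the 3 Q33;TDP-43 libraries, with 28.7% in replicate 1. No fit held that share as a term, and its part was not tested.

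**Figure D4:**
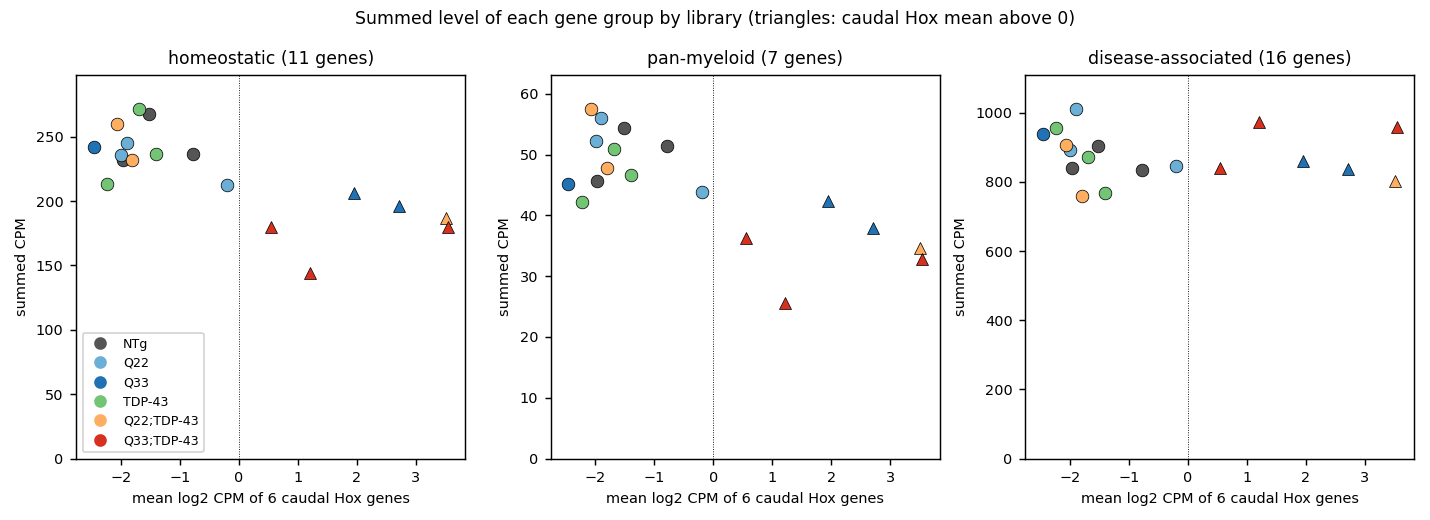
Summed CPM of each gene group (y axis) against the mean log2 CPM of 6 caudal Hox genes (x axis), 1 point per library, coloured by genotype. All triangles, with a Hox mean above 0, lie at or below 207 CPM for homeostatic genes and at or below 42.4 CPM for pan-myeloid genes, and they mix with the circles for disease-associated genes.

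Adding the longer ATXN2 tract to TDP-43 was read by comparing Q33;TDP-43 with TDP-43. This comparison and those with Q22;TDP-43 and Q33 use the same Q33;TDP-43 libraries as the one with NTg. Of the 34 genes 8 passed, beside 12.6% of all genes (6.66% lower and 5.98% higher): Csf1r, Sall1, Selplg, Laptm5, Lpl, Cd68 and Csf1 fell and Spp1 rose. The largest fall was in Lpl (log2FC -1.27, SE 0.29, adjusted p = 0.01), whose TDP-43 libraries had 8.44, 7.17 and 9.18 CPM. Selplg, the P-selectin ligand gene of leukocytes and microglia (ENSMUSG00000048163.13, chromosome 5, 113818536 to 113832644, minus strand), fell from 10.5, 11.98 and 13.6 to 7.51, 8.89 and 8.01 CPM (log2FC -0.56, SE 0.15, adjusted p = 0.022) with no overlap, while NTg stood at 11.1, 8.92 and 10.1 CPM, its lowest library just above Q33;TDP-43. Cd68 fell from 2.40, 2.89 and 2.80 to 1.05, 2.01 and 1.02 CPM (log2FC -0.99, SE 0.31, adjusted p = 0.044). Sall1 changed by -0.69 and Csf1r by -0.64 on the log2 scale (adjusted p = 0.0048 and 0.006), and Csf1 and Laptm5 by -0.75 and -0.60 (0.0082 and 0.034). Spp1 changed by 0.89 (adjusted p = 0.034), with overlap through replicate 2 of TDP-43. Group medians were -0.41 for homeostatic, -0.60 for pan-myeloid and -0.32 for disease-associated genes, beside -0.02 over all genes. In 13 of 34 genes (38.2%) all Q33;TDP-43 libraries were lower, as in 14.1% of all genes, and in 1 (2.94%) all were higher, as in 13.1%. Of the 8 calls, 2 (Csf1r and Sall1) were kept without Q33;TDP-43 replicate 1, and the same 2 without TDP-43 replicate 3. Without TDP-43 replicate 1 or 2 the calls kept were 5 and 7, and without Q33;TDP-43 replicate 2 or 3 they were 6 and 7. The fit with the caudal Hox term called 0 members (8 at an unadjusted p under 0.05), the fit of these 2 groups alone called Lpl only, and a term for sex by the Y-linked genes ended the calls of Cd68 and Spp1.

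The 2 double mutants differ in the length of the ATXN2 tract. Against Q22;TDP-43, 7 of 34 genes passed in the Q33 double mutant, beside 12.8% of all genes (6.17% lower and 6.67% higher): Csf1r, Sall1, Itgam, Laptm5, Lpl and Csf1 fell and Spp1 rose. Spp1 went from 61.9, 48.2 and 38.4 to 132, 130.5 and 94.3 CPM with no overlap (log2FC 1.27, SE 0.27, adjusted p = 0.0057). Csf1 went from 32.2, 48.6 and 43.5 to 19.3, 28.2 and 28.8 CPM (log2FC -0.70, SE 0.16, adjusted p = 0.011), and Laptm5 from 16.9, 28.00 and 20.9 to 11.3, 13.6 and 15.2 CPM (log2FC -0.71, SE 0.18, adjusted p = 0.015). Csf1r, Sall1 and Itgam changed by -0.55, -0.53 and -0.73 (adjusted p = 0.013, 0.016 and 0.032), and Lpl, which overlapped, by -1.27 (0.0092). All 11 homeostatic and 7 pan-myeloid estimates were below 0, with medians of -0.42 and -0.35, and 7 genes of 34 (20.6%) were lower without overlap, as were 14.4% of all genes. Against this, 2 genes of 34 (5.88%) were higher without overlap, as were 14.8% of all genes. For all 7 called genes replicate 1 of Q22;TDP-43, the caudal one, lay closest to Q33;TDP-43. Without it all 7 calls were kept and 11 members were called. Without replicate 2 of Q22;TDP-43 only Spp1 was kept, without replicate 3 Laptm5 and Spp1, and without Q33;TDP-43 replicate 1 only Spp1. With the caudal Hox term 5 of the 7 calls were kept: Csf1r, Laptm5, Lpl, Csf1 and Spp1.

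Adding TDP-43 to the longer tract, read as Q33;TDP-43 against Q33, called 0 of 34 members with edgeR, beside 0.892% of all genes, and 2 with DESeq2. At an unadjusted p under 0.05 there were 10, among them Lpl (log2FC -1.18, SE 0.29, adjusted p = 0.057), Sall1 (log2FC -0.46, SE 0.14, adjusted p = 0.089) and Csf1r (log2FC -0.41, SE 0.13, adjusted p = 0.11). For these 3 genes every Q33;TDP-43 library was below every Q33 library, as for 10 of the 34 (29.4%, beside 11.3% of all genes). Another 3 genes (8.82%) were higher without overlap, beside 11.4% of all genes. The medians were -0.36, -0.33 and -0.22 for homeostatic, pan-myeloid and disease-associated genes. Of the 3 Q33 libraries 2 are caudal. Set against those 2 only, 0 members passed the edgeR test and 4 had an unadjusted p under 0.05, with a median of -0.20. Without Q33;TDP-43 replicate 2 or 3, or with the caudal Hox term, 1 member was called.

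The remaining comparisons held no called member, and few or no called genes of any kind. Against NTg, 0 members passed in Q22, Q33, TDP-43 and Q22;TDP-43 by edgeR and by DESeq2, beside 0% of all genes in the first 3 and 0.00969% in the last. At an unadjusted p under 0.05 there were 1 (Gpr34), 3 (P2ry13, Itgax and Spp1), 1 (P2ry13) and 1 (P2ry13). The 3 single mutants and Q22;TDP-43 had homeostatic medians of -0.08, -0.23, -0.16 and -0.15. In Q33, 28 of 34 estimates were below 0 and the estimate for Spp1 was 0.67 (adjusted p = 0.66), with replicates 2 and 3 caudal. In Q22, all 3 of whose libraries express Y-linked genes while those of NTg do not, 17 estimates were above and 17 below 0.

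Between mutants, Q22;TDP-43 against TDP-43, Q22;TDP-43 against Q22 and Q33 against Q22 also called 0 members by both tools, beside 0% of all genes, with 0, 2 and 2 at an unadjusted p under 0.05. The smallest of these was for Itgax in Q33 against Q22, 0.214, 0.0900 and 0.268 CPM against 1.42, 1.88 and 0.420 (log2FC -2.63, SE 0.62, adjusted p = 1), a gene with few counts. Tests of whether the TDP-43 effect differed with an ATXN2 knock-in called 0 members for Q33 and for Q22 by both tools, beside 0% of all genes, with 6 and 1 at an unadjusted p under 0.05. With Q33 the smallest p-values were for Sall1 (log2FC -0.67, SE 0.19, adjusted p = 0.25) and Selplg (log2FC -0.68, SE 0.21, adjusted p = 0.25). For Sall1, TDP-43 libraries stood above NTg in mean (50.5 ± 3.69 against 43.8 ± 5.04 CPM), and Q33;TDP-43 stood below Q33 (31.3 ± 6.69 against 43.1 ± 3.32 CPM). The mean of Sall1 thus moved in opposite directions, but no member passed this test.

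**Figure D5:**
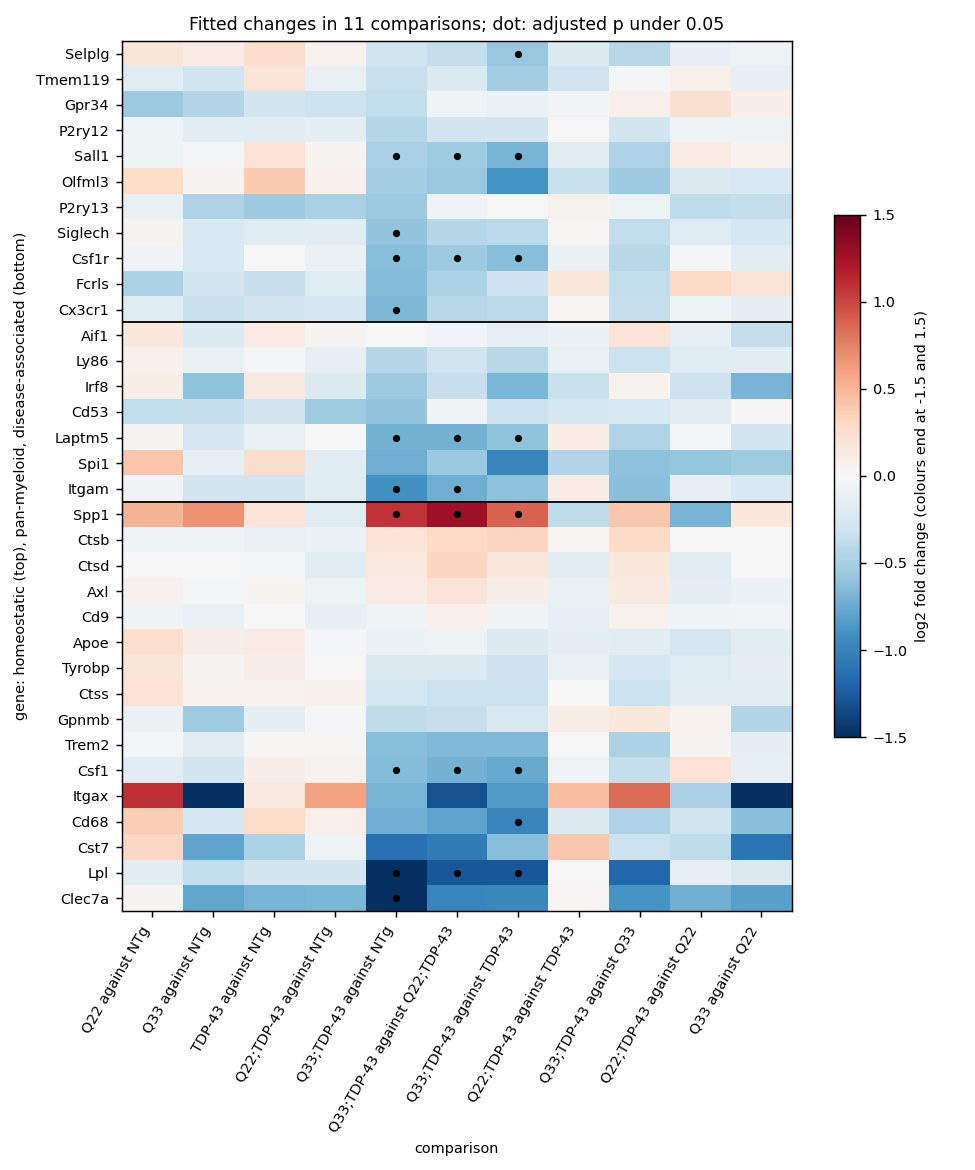
Log2 fold change (colour, ending at -1.5 and 1.5) of the 34 genes in 11 comparisons of 2 groups, where a dot marks an adjusted p under 0.05. Dots stand only in the 3 columns of Q33;TDP-43 against NTg, Q22;TDP-43 and TDP-43, which share the Q33;TDP-43 libraries, and Spp1 is the 1 gene with dots on red.

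Further microglial genes that are not among the 34 were counted in the same way. Lists for the pathways above were counted as well, and some of those lists include members. All these lists were chosen with earlier results of these data known, so they are no independent test. Their counts against NTg are to be read beside the 6.39% of all genes that were lower and the 5.68% that were higher. Of 27 other microglia genes, 8 were lower and 0 higher in Q33;TDP-43 against NTg, with a median of -0.38. Ptprc, the common leukocyte antigen CD45, fell from 13.6 ± 0.720 to 7.20 ± 1.94 CPM (log2FC -0.93, SE 0.19, adjusted p = 0.0061), and Tgfbr1, a TGF-beta receptor gene, and Cd33, a sialic acid-binding lectin, had log2FC of -0.49 and -0.77 and passed too. Against TDP-43, 6 of the 27 were lower and 0 higher, beside 6.66% and 5.98% of all genes. Against Q22;TDP-43, 2 of the 27 were lower and 0 higher, beside 6.17% and 6.67% of all genes. The 2 lower genes are near the share over all genes. Of 21 further disease-associated genes tested, 3 were lower (Lgals3, Mamdc2 and Cybb) and Fabp5, a fatty acid carrier also of neurons and other glia, was higher (log2FC 0.63, SE 0.12, adjusted p = 0.0041). Lgals3, galectin-3, went from 1.71 ± 0.397 to 0.198 ± 0.175 CPM, which is near the limit of detection.

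By pathway, all 10 CSF1 receptor pathway genes had estimates below 0 against NTg, with a median of -0.50. This list includes the members Csf1r, Csf1, Spi1 and Irf8. It also holds Csf2ra and Csf2rb, which encode chains of the receptor for another factor, CSF2. The 2 that passed, Csf1 and Csf1r, are member calls already given above. Against Q22;TDP-43 these 2, the CSF2 receptor gene Csf2ra and the signal transducer gene Stat5b fell. In the TREM2 pathway, a list that includes the members Trem2 and Tyrobp, 2 of 11 genes tested fell. These were the exchange factor gene Vav1 and the phosphatase gene Inpp5d (log2FC -0.58, SE 0.18, adjusted p = 0.045). Of 13 TGF-beta genes 2 fell, Tgfbr1 (log2FC -0.49, SE 0.12, adjusted p = 0.012) and Tgfb2 (log2FC -0.54, SE 0.16, adjusted p = 0.039). Tgfbr1 and Inpp5d are also on the list of other microglia genes. Among 7 ligands and receptors between neurons and microglia, Gas6, the ligand of the AXL receptor, rose from 66.7 ± 2.42 to 95.3 ± 15.9 CPM (log2FC 0.51, SE 0.14, adjusted p = 0.028), and Pros1 and Cd47 fell. Of 20 other lysosomal genes 1 (5%) fell, the cholesterol transporter gene Npc1 (log2FC -0.34, SE 0.09, adjusted p = 0.022), with a list median of -0.07. All these counts against NTg stand beside 6.39% of all genes lower and 5.68% higher. Against TDP-43 and Q22;TDP-43, 3 and 4 of the 10 CSF1 receptor pathway genes fell. So did 2 and 1 of the 11 TREM2 pathway genes tested and 1 and 2 of the 13 TGF-beta genes, and 0 rose. Of all genes 6.66% and 6.17% were lower and 5.98% and 6.67% higher in these comparisons. A single call in a list of 11 or 13 genes is near those shares.

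Genes of other cell types moved in Q33;TDP-43 against NTg as well, where 6.39% of all genes were lower and 5.68% higher. Of the astrocyte genes 3 of 8 (Slc1a3, Gfap and Aqp4) fell, as did 1 of 7 oligodendrocyte genes (Cldn11). On the list of fibroblast and meninges genes 2 of 8 (Col1a2 and Pdgfra) fell, but 5 of the 8 estimates were above 0, with a median of 0.29. All 7 oligodendrocyte estimates were below 0, with a median of -0.28, and 5 of 7 (71.4%) were lower without overlap, beside 15.8% of all genes. Their summed level was 5595 to 7158 CPM in the Q33 double mutant and 7387 to 8319 CPM in NTg, and its part in the microglial values was not tested. Of 10 neuron genes 4 rose and 1 fell. Of the endothelial and mural genes 3 of 9 (Acta2, Myh11 and Cldn5) rose. Markers of border-associated macrophages, monocytes, neutrophils and lymphocytes had 0 calls among the 9 that could be tested (0 at an unadjusted p under 0.05 by edgeR). Their part in the microglial values was not tested, and their summed levels are given above.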

How the data were processed

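The deposited table holds raw counts, whole numbers of read pairs per gene for 18 libraries. Per the file headers, the authors counted pairs over exons by gene identifier with featureCounts 1.6.1, strand-aware, on TopHat alignments and the GENCODE M19 annotation. The submitters' processing notes also name Trim Galore 0.4.1, DESeq2 and the mm10 build. Per the labels' protocols, RNA was depleted of ribosomal RNA. Of 54446 genes, 54409 were matched to symbols.

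Genes were filtered with filterByExpr, scaled by TMM and tested in 1 edgeR 4.0.16 quasi-likelihood fit of all 18 libraries, with no covariate, over 20635 genes. P-values were adjusted by Benjamini-Hochberg, and the threshold was 0.05. CPM are counts scaled to a TMM-adjusted total of 1000000, and log2 CPM used a prior count of 2. The standard error was the log2 fold change over the root of F. RPKM used the exon length in the deposited table. The limit of detection was set at 3 counts per library. The tests set each difference against the spread between animals, estimated in the fit of all 18 libraries. Caudal Hox and Y-linked levels also differed between these animals. The fit was checked on simulated counts. DESeq2 1.42.0, other scalings, covariates and left-out libraries were alternatives.

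Every one of the 34 genes is named. Values per library are given for those called in a comparison and for P2ry12, Tmem119, Trem2, Tyrobp, Apoe, Cst7 and Itgax, and some others where a pattern needed them. From other lists at most 3 called genes are named by adjusted p, except where a count is spelled out. Genes and lists were chosen with earlier results of these data known. 1 gene of the cell type lists was left out and is not reported here.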

Additional observations from a re-analysis of the deposited data

How the results depend on the processing

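Of 25 single-gene calls (10 against NTg, 8 against TDP-43 and 7 against Q22;TDP-43), all 25 were kept with DESeq2, with library totals and with no filter on low counts, 23 with a term for sex, 15 with only the compared groups fitted, and 6 with the caudal Hox term, and no sign turned. The cause of these changes was not tested. For Q33;TDP-43 against NTg, Q22;TDP-43, TDP-43 and Q33, library totals called 17, 13, 16 and 2 members, with medians over all genes of -0.25, -0.25, -0.25 and -0.15. With no filter, the numbers for Q22;TDP-43, TDP-43 and Q33 were 12, 13 and 6. Without the filter 1 member was called in Q22 against NTg, Q33 against NTg, Q22;TDP-43 against Q22, Q33 against Q22 and the Q22 by TDP-43 interaction, and 2 in the Q33 by TDP-43 interaction. With the caudal Hox term 1 member was called against NTg, 0 against TDP-43 and 1 against Q33, where the main fit had called 0. Fitting only the compared groups left 1 against TDP-43, and DESeq2 called 2 against Q33. With caudal libraries only, chosen after seeing the data, 0 were called against Q22;TDP-43, but that arm is 1 library, assumed to vary like the others and the closest to Q33;TDP-43 for all 7 genes, so nothing is read from it. Leaving out 1 library at a time gave 1 to 10 calls against NTg, 1 to 11 against Q22;TDP-43, 2 to 9 against TDP-43 and 0 to 1 against Q33, and 0 in every other comparison. No paired analysis was possible because the replicate numbers only name the libraries. Genes such as Cst7, Itgax and Clec7a, with 10 counts or fewer in some library, limit what could be detected.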
